A study of Rattus norvegicus with 12 samples.

Results

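The ERK feedback genes described here are 10 rat genes in 3 families: the dual-specificity phosphatase genes Dusp1, Dusp4, Dusp5 and Dusp6, the Sprouty genes Spry1, Spry2 and Spry4, and the ETS factor genes Etv1, Etv4 and Etv5. Every probe set that the array annotation assigns to one of these symbols was taken, which gave 19 probe sets for 10 genes, out of 31042 probe sets other than controls and 14217 genes with a symbol of their own. The list was put together with earlier results of these arrays known, namely that genes induced by ERK signaling had higher intensities in WB-F344 cells exposed to rapamycin. The values of that comparison are therefore given as a description, without a test. Gene expression was measured on 12 arrays, with 3 plates in each of 4 groups: WB-F344 cells with DMSO vehicle, WB-F344 cells with 50 nM rapamycin, WB311 cells with vehicle and WB311 cells with 50 nM rapamycin. Exposure lasted 24 hr, in medium with fetal bovine serum. Rapamycin inhibits the kinase mTOR. WB-F344 is a normal diploid line of liver epithelial cells from an adult male Fischer rat, labelled as rapamycin-sensitive and not tumorigenic, with a doubling time of 42 hr. WB311 arose spontaneously from WB-F344 and is labelled as resistant and tumorigenic, with a doubling time of 15.5 hr. Each is a single cell line, so differences between the lines are differences between those cultures. The comparisons addressed how the genes respond to rapamycin in a sensitive and in a resistant line and how the lines differ.

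ERK is the last kinase of the Ras, Raf and MEK cascade that receptor tyrosine kinases switch on, and it is active only while its threonine and tyrosine phosphorylation sites carry phosphate. DUSP6 removes that phosphate in the cytoplasm, DUSP5 and DUSP4 act in the nucleus, and nuclear DUSP1 acts on p38 and JNK as well as ERK, while Sprouty proteins restrain the pathway between the receptor and Ras. Etv1, Etv4 and Etv5 encode the PEA3 group of ETS transcription factors, and most of these genes are themselves induced by ERK signaling, so that their transcripts are widely read as a sign of its output. ERK phosphorylation itself was not measured on these arrays.

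Values are intensities on a linear scale, which the authors had normalized by Robust Multiarray Average, and differences are log2 differences of intensity with their standard error (SE) from a limma fit to all 12 arrays. A probe set counts as measured in a comparison if 1 or both groups averaged 100 or more, and as called if, in addition, its Benjamini-Hochberg adjusted p over all measured probe sets lay below 0.05 and its fold change reached 1.2. A gene is represented by its probe set of highest mean, and its other probe sets are given beside it. Arrays of the same group correlated at 0.989 to 0.998 across probe sets. The WB-F344 plates numbered 2 stood apart, with 3′ minus 5′ log2 differences for Gapdh of 0.34 with vehicle and 0.17 with rapamycin, against -0.12 to -0.042 on the other 10 arrays. For actin these plates had 1.04 and 0.62, against 0.21 to 0.25 on the other WB-F344 arrays and 0.38 to 0.49 in WB311. Actin thus also set the lines apart, and its bearing on the differences between the lines was not tested. Of the markers of hepatocytes only Ttr reached an average of 100, and Alb stayed under it. Of the 5 epithelial and biliary markers with a probe set, 2 averaged at least 100 in WB-F344, Krt8 and Krt7, and 3 in WB311. Those of WB311 were Krt8, Krt18 and Krt19 with vehicle, and Krt8, Krt18 and Krt7 with rapamycin. Krt18 and Krt19 were under 100 in both WB-F344 groups, and Krt8 was above 100 in all groups. The labels describe epithelial cells, and mesenchymal markers were also above 100, 5 of 6 in WB-F344 and 4 of 6 in WB311.

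**Figure D1:**
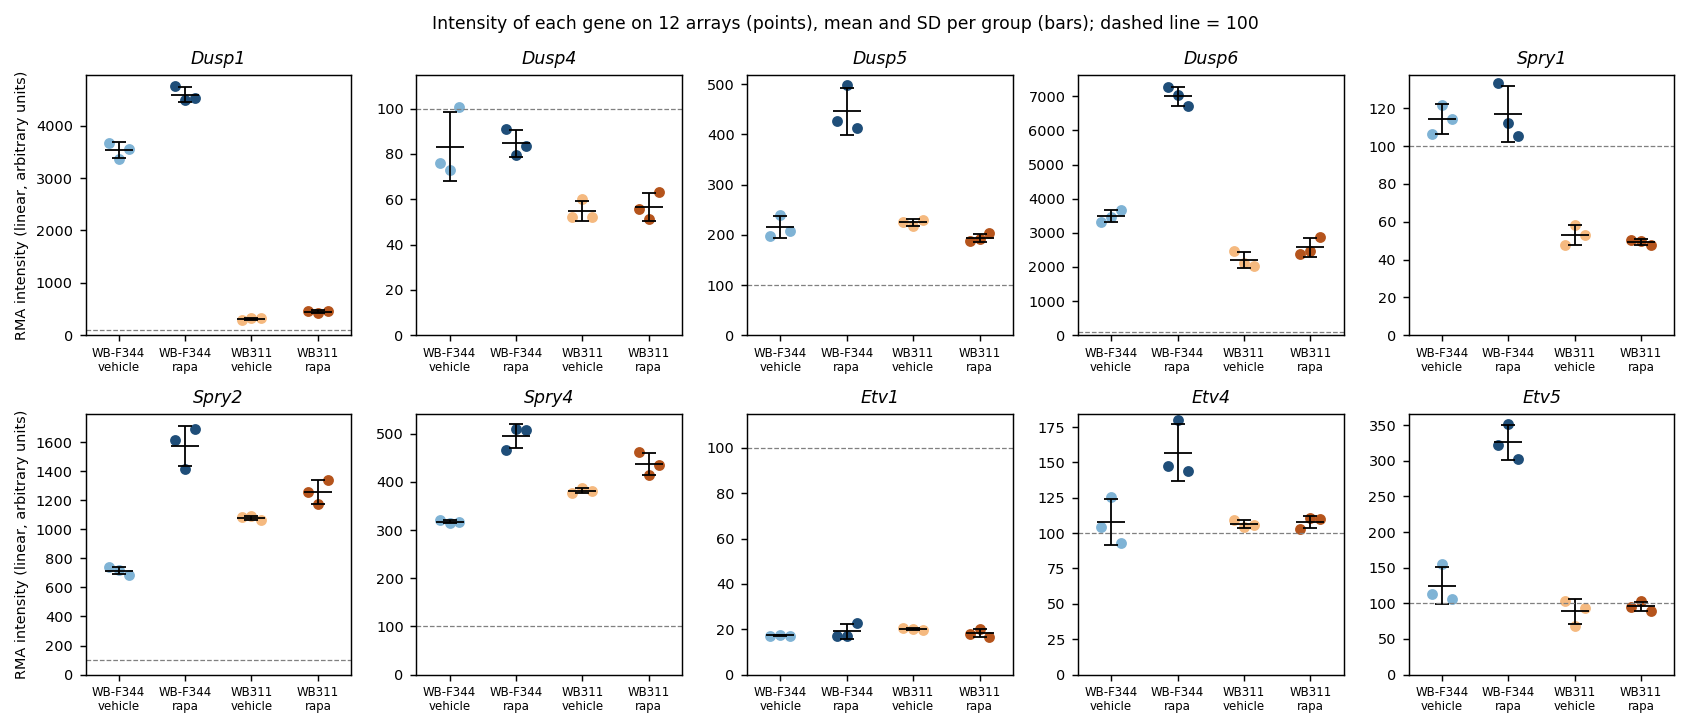
Intensity of each of the 10 genes (linear, arbitrary units, each axis from 0) on the 3 arrays of each group; points are arrays, bars the mean and SD, and the dashed line is 100. Dusp5, Dusp6, Spry2 and Etv5 stood highest in WB-F344 with rapamycin, Dusp1 was high in both WB-F344 groups and low in both WB311 groups, and Etv1 and Dusp4 averaged under 100 in every group.

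The promoters of 4 of the genes, chosen after their values were seen, are shown for orientation: Dusp5, Dusp6 and Spry2, which were about 2-fold higher in WB-F344 with rapamycin, and Dusp1, which differed most between the lines. Each is the sequence upstream of the transcription start in RefSeq (assembly GRCr8), printed 5′ to 3′ on the gene's strand. Capitals mark a TGACGTCA site, to which CREB and ATF factors bind, in Dusp1, and 2 adjoining CArG boxes, the core of the serum response element, in Dusp5.
Dusp5 (chr1:262543524-262543773, plus strand): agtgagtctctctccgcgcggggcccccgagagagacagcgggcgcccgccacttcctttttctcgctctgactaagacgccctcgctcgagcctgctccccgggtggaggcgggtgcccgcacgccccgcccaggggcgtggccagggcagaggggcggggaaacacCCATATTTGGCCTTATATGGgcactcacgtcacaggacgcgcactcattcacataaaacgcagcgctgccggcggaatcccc
Dusp6 (chr7:35979354-35979501, plus strand): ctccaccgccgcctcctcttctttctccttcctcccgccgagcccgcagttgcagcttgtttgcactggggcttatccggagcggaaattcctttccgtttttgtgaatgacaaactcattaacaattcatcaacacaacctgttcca
Spry2 (chr15:89111927-89112176, minus strand): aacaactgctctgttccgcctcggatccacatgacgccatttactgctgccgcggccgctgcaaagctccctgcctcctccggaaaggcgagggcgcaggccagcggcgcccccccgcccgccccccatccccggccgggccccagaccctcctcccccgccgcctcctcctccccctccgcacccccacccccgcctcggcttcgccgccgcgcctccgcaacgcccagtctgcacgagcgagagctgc
Dusp1 (chr10:17184603-17184852, plus strand): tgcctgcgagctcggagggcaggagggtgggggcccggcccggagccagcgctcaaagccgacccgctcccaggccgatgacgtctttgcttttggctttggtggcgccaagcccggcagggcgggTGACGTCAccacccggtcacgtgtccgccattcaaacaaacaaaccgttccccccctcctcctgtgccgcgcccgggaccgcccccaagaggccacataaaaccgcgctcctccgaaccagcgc
The sequences printed hold 250 bases, except that of Dusp6. It holds 148, because the 102 bases next to its start lie inside the annotated span of the Dusp6 gene itself. The table of promoters held 8 of the 10 genes, in 9 windows, and Dusp4 and Etv4 were not among them. Both strands of every window of 250 bases, that of Dusp6 in full, were searched for 5 motifs. The CArG box lay in 1.5% of all 33469 promoters and in 2 of the 9 windows, those of Dusp5, at bases -82 to -73 and -72 to -63, and of Etv1, at bases -237 to -228. TGACGTCA lay in 1.59% of all promoters and in 1 window, that of Dusp1, at bases -124 to -117. The AP-1 site TGANTCA (6.34% of all promoters) and the ETS motifs CCGGAAG (7.27%) and CAGGAAG (10.2%) were in none of the 9 windows. A match of letters is not a measurement of binding.

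In WB-F344 cells, 8 of the 10 genes were measured in the comparison of rapamycin with vehicle. In 7 of these the 3 rapamycin arrays lay above the 3 vehicle arrays, and in none below, while over all 13261 measured probe sets 11.7% lay wholly above and 22.7% wholly below. Since the list was chosen on this contrast, nothing is read from that count. The median log2 difference of the 8 genes was 0.82, against -0.053 over all measured probe sets. Intensity is an average over the RNA of a plate, so fewer cells expressing a gene and less RNA per cell cannot be told apart. Replicate arrays came from separate plates. Errors and p-values measure the spread between plates pooled over the 4 groups, so those for WB311 also carry the spread of the WB-F344 plates. For the Dusp6 probe set 1387024_at, the SE of the WB311 difference was 0.095 in this fit. It was 0.063 in a fit to the 2 WB311 groups alone.

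Dusp6, the cytoplasmic phosphatase of ERK, had intensities of 3331, 3468 and 3677 on the WB-F344 vehicle arrays and 7261, 7037 and 6704 with rapamycin. In WB311 it was 2472, 2125 and 2039 with vehicle and 2381, 2463 and 2881 with rapamycin. The groups of WB-F344 were far apart, and those of WB311 overlapped. The log2 difference with rapamycin was 1.0 (SE 0.094) in WB-F344, a fold change of 2.01, and 0.22 (SE 0.094) in WB311 (95% confidence interval 0.015 to 0.42, adjusted p = 0.257 from limma). Both other Dusp6 probe sets gave nearly the same sizes in WB-F344, 0.97 and 0.95. In WB311 they gave 0.28 each (adjusted p = 0.141 and 0.127), and on both the 3 rapamycin arrays lay above the vehicle arrays. The WB311 differences of Dusp6 thus did not pass the test, with 3 probe sets pointing the same way. Compared between the lines with vehicle, Dusp6 was lower in WB311, at -0.66 (SE 0.094, adjusted p = 5.64e-05), with -0.67 for each of the others.

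Dusp5, the nuclear phosphatase specific to ERK, was 198, 239.6 and 208 on the WB-F344 vehicle arrays and 426, 499 and 412 with rapamycin. In WB311 it was 226, 217 and 230.1 with vehicle and 187, 192 and 203 with rapamycin. All 3 rapamycin arrays lay above vehicle in WB-F344, and all 3 lay below vehicle in WB311. The log2 difference was 1.05 (SE 0.092) in WB-F344 and -0.21 (SE 0.092) in WB311 (95% confidence interval -0.41 to -0.012). The WB311 value did not pass the test after adjustment (adjusted p = 0.262 from limma). With vehicle, Dusp5 differed by 0.07 between the lines (WB311 minus WB-F344, 95% confidence interval -0.13 to 0.27, adjusted p = 0.55).

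Dusp1, an immediate early phosphatase that acts on several MAP kinases, set the lines apart more than any other of the 10 genes. Its intensities were 3671, 3372 and 3548 on the WB-F344 vehicle arrays and 4753, 4488 and 4531 with rapamycin, against 283, 322 and 331 with vehicle and 466, 417 and 466 with rapamycin in WB311. No 2 of the 4 groups overlapped. With vehicle Dusp1 was lower in WB311, with a log2 difference of -3.50 (SE 0.079, adjusted p = 2.63e-12 from limma), a fold change of 11.3. The comparison uses the WB-F344 vehicle arrays on which the choice of the list also rested. Dusp1 was also the 1 member called higher with rapamycin in WB311, at 0.53 on the log2 scale (SE 0.079, 95% confidence interval 0.36 to 0.70, adjusted p = 0.00436). With the mean of both Dusp1 probe sets in its place the call was lost (0.65, SE 0.23, adjusted p = 0.117). In WB-F344 the difference was 0.38 (SE 0.079). A second Dusp1 probe set, 1368147_at, was much noisier in WB-F344, with 636, 163 and 575 with vehicle and 917, 409 and 822 with rapamycin. The low value in each group was that of the plate numbered 2, the plates with the high 3′ minus 5′ differences, whose part in it was not tested. This probe set was under 100 on every WB311 array (34.8 to 38.5 with vehicle, 56.3 to 68.6 with rapamycin), so the change with rapamycin was not tested there, although the groups did not overlap. Between the lines with vehicle it differed by -3.43 (SE 0.43, adjusted p = 1.92e-05).

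Dusp4, a nuclear phosphatase of ERK, p38 and JNK, averaged under 100 in every group, with arrays from 72.8 to 101 in WB-F344 and from 51.1 to 63.4 in WB311. It was therefore not tested. Its WB311 arrays all lay below its WB-F344 arrays.

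**Figure D2:**
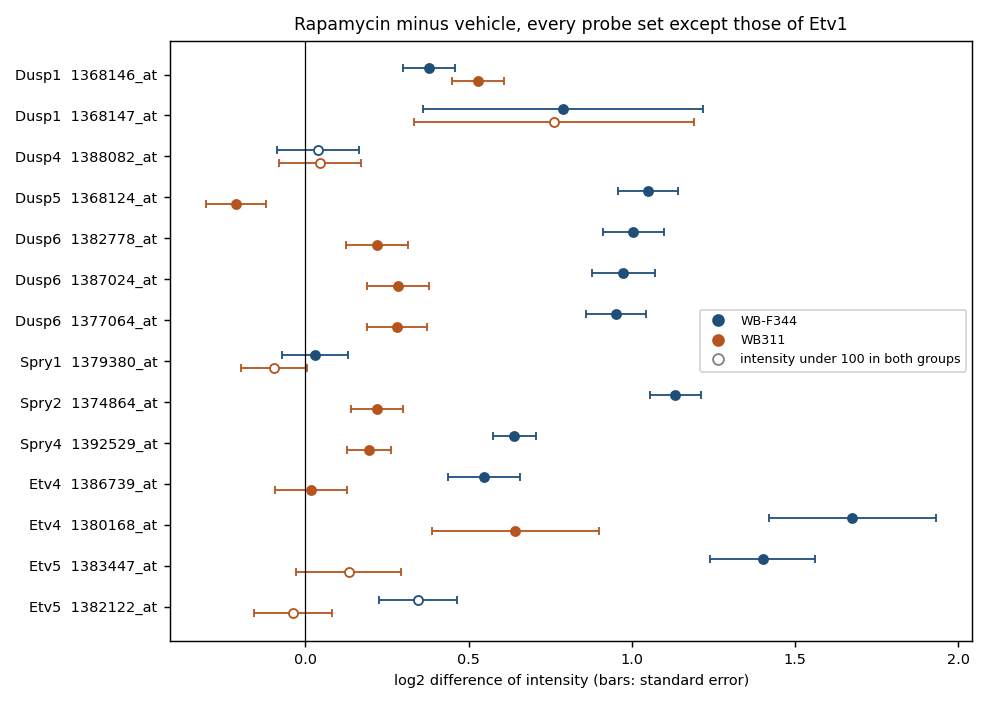
Log2 difference of intensity, rapamycin minus vehicle, for 14 probe sets of the genes other than Etv1, in WB-F344 (blue) and WB311 (orange); bars are the SE and open points mark probe sets under an average of 100 in both groups. In WB-F344 the 3 Dusp6 probe sets, Dusp5, Spry2 and Etv5 (1383447_at) lay between 0.95 and 1.40, whereas in WB311 the 1 called value was that of Dusp1 (1368146_at), at 0.53.

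Among the Sprouty genes, Spry2 and Spry4 followed the same order of groups, and Spry1 did not. Spry2 was 741, 718 and 689 on the WB-F344 vehicle arrays and 1615, 1418 and 1691 with rapamycin, and in WB311 it was 1086, 1089 and 1063 with vehicle and 1257, 1176 and 1339.8 with rapamycin. The log2 difference with rapamycin was 1.13 (SE 0.080) in WB-F344, and 0.22 (SE 0.080) in WB311 (95% confidence interval 0.045 to 0.39, adjusted p = 0.176 from limma). With vehicle Spry2 was higher in WB311, by 0.59 (SE 0.080, adjusted p = 3.59e-05). Spry4 was 321, 314 and 318 with vehicle and 466, 510.5 and 509 with rapamycin in WB-F344, and 377, 386 and 382 with vehicle and 462, 415 and 434 with rapamycin in WB311. It differed with rapamycin by 0.64 (SE 0.066) in WB-F344 and by 0.20 (SE 0.066) in WB311 (95% confidence interval 0.050 to 0.34, adjusted p = 0.146). For both genes the WB311 rapamycin arrays lay above the WB311 vehicle arrays without passing the test in this fit. Both genes ran from WB-F344 with vehicle, the lowest, through WB311 with vehicle and WB311 with rapamycin to WB-F344 with rapamycin, with no overlap between neighbours.

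With vehicle Spry4 was 0.27 higher in WB311 (SE 0.066, adjusted p = 0.00396). Its fold change was just past the limit of 1.2, and the call was lost at 0.26 when each array was centred on its median. Spry1 was near the limit of detection used here, at 106, 122 and 114 with vehicle and 134, 112 and 105 with rapamycin in WB-F344. It lay from 47.5 to 58.1 over the 6 arrays of WB311. Rapamycin and vehicle overlapped in both lines, with a log2 difference of 0.03 (SE 0.10) in WB-F344. Between the lines with vehicle Spry1 was lower in WB311, at -1.12 (SE 0.10, adjusted p = 1.03e-06). Since WB311 was under 100, that difference is a rough size.

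Of the ETV factors, Etv5 had the largest difference with rapamycin in WB-F344 among the representative probe sets of the 8 measured genes. Its intensities there were 113, 155 and 106 with vehicle and 323, 352 and 303 with rapamycin, a log2 difference of 1.40 (SE 0.16) and a fold change of 2.64. In WB311 it was 103, 68.3 and 93.9 with vehicle and 94.6, 103 and 89.7 with rapamycin, which overlapped, and it was not tested because both averages were under 100. With vehicle it was lower in WB311, at -0.50 (SE 0.16, adjusted p = 0.0177 from limma). That call was lost without the WB-F344 vehicle plate 2 (-0.33, adjusted p = 0.067), whose value of 155 was the highest of its group, or without the WB311 vehicle plate 2 (-0.32, adjusted p = 0.0837). A second Etv5 probe set, 1382122_at, lay between 36.7 and 56.9 on all 12 arrays and was not tested. Its log2 difference with rapamycin was 0.34 (SE 0.12) in WB-F344 and -0.04 (SE 0.12) in WB311. With vehicle it was not lower in WB311, at 0.06 (SE 0.12, WB311 minus WB-F344).

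Etv4 was 104, 125 and 93.2 with vehicle and 147, 179.9 and 144 with rapamycin in WB-F344, a log2 difference of 0.55 (SE 0.11). In WB311 it was 109, 104 and 106 with vehicle and 103, 110.4 and 110.2 with rapamycin, a difference of 0.02 (95% confidence interval -0.22 to 0.26, adjusted p = 0.97 from limma). The lines did not differ detectably with vehicle, at -0.01 (95% confidence interval -0.25 to 0.24, adjusted p = 0.971). A second Etv4 probe set, 1380168_at, gave larger differences. It was 52.9, 102 and 60.8 with vehicle and 193, 321 and 172 with rapamycin in WB-F344, a difference of 1.68 (SE 0.26). In WB311 it was 62.7, 73.7 and 84.6 with vehicle and 105, 133 and 107 with rapamycin, a difference of 0.64 (SE 0.26, 95% confidence interval 0.085 to 1.2, adjusted p = 0.22). In both lines this probe set averaged at least 100 with rapamycin only, so it was measured through the group where it was higher. The probe sets of Etv4 thus disagreed on the size of the change, and the highest values of both in WB-F344 were those of the plates numbered 2. Etv1 was not detected above the limit used: its 5 probe sets gave 60 values from 9.79 to 22.7, and it was not tested.

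**Figure D3:**
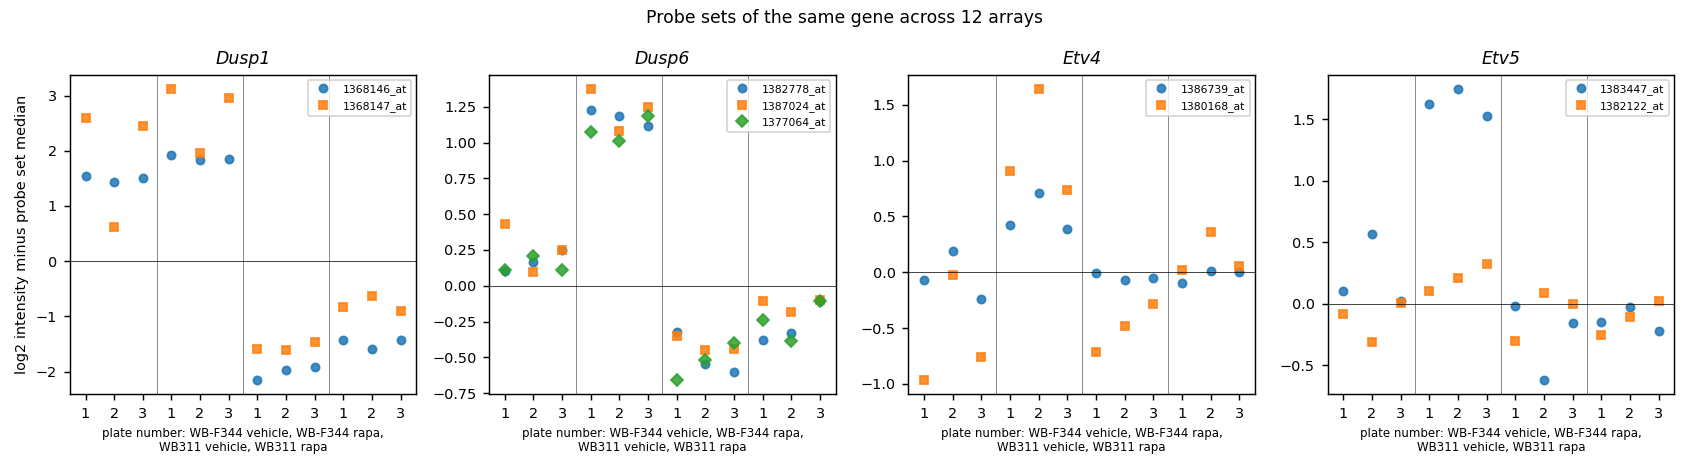
Log2 intensity of each probe set minus its own median over the 12 arrays, for the 4 genes other than Etv1 with more than 1 probe set; the x axis gives plates 1 to 3 of each group, with lines between the groups. The 3 Dusp6 probe sets ran together, whereas 1368147_at of Dusp1 dropped on the WB-F344 plates numbered 2, and the probe sets of Etv4 and Etv5 differed in how far they stood above vehicle in WB-F344 with rapamycin.

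Counted by gene, rapamycin in WB311 gave 1 call among the 6 measured members, that of Dusp1, and no member was called lower, while with the mean of all probe sets of a gene no member was called. Over all 13135 measured probe sets 3.35% were called, 1.71% higher and 1.64% lower. The median log2 difference of the 6 members was 0.21, against 0.0091 over all measured probe sets. The rapamycin arrays lay wholly above vehicle for Dusp1, Spry2 and Spry4 and wholly below for Dusp5, where 20.9% and 17.8% of all measured probe sets did so.

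The rapamycin effect in WB311 minus that in WB-F344 is a description, since it contains the contrast used to choose the list. It was -1.27 (SE 0.23) for Etv5, -1.26 (SE 0.13) for Dusp5, -0.92 (SE 0.11) for Spry2, -0.78 (SE 0.13) for Dusp6, -0.53 (SE 0.16) for Etv4 and -0.45 (SE 0.094) for Spry4. For Spry1 it was -0.13 (SE 0.14), and for Dusp1 it had the other sign, 0.15 (SE 0.11). The other Dusp1 probe set gave -0.03 (SE 0.61), and the other Etv4 probe set -1.03 (SE 0.36). The other Etv5 probe set, under 100 in every group, gave -0.38 (SE 0.17). Among leukocyte markers, Cd14 was the 1 gene above 100, and the summed level of the 5 markers went from between 605 and 728 to between 1093 and 1344 with rapamycin in WB-F344, and from between 593 and 710 to between 707 and 746 in WB311. Ptprc, which defines leukocytes, was under 100 in every group. The part of this movement in the values above was not tested.

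Between the lines with vehicle, 6 of the 8 measured genes were called: Dusp1, Dusp6, Spry1 and Etv5 were lower in WB311, and Spry2 and Spry4 were higher. Spry1 and Etv5 averaged at least 100 in WB-F344 only, the line where they were higher, so that they were measured through that group alone. Over all 13871 measured probe sets 56% were called, 27.9% higher and 28.1% lower, so that calls were common between these lines for genes of any kind. The arrays of the lines did not overlap for the same 6 genes, 4 below and 2 above, where 33% of all measured probe sets lay wholly below and 33.3% wholly above. The members moved in both directions, with a median of -0.25 against 0.018 over all measured probe sets. The mesenchymal markers, summed over 6 genes, lay between 44544 and 52423 in WB-F344 and between 13051 and 13346 in WB311 with vehicle, and of the 4 endothelial markers Tek was above 100 in WB311 only. Their part in the differences of the members was not tested.

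With rapamycin in both lines, 7 of the 8 measured genes were called lower in WB311 and none higher, where 59.3% of 13949 measured probe sets were called, 26% lower and 33.3% higher. For all 8 the WB311 arrays lay wholly below, as they did for 31.9% of all measured probe sets, with 40.4% wholly above. The WB-F344 rapamycin arrays are those whose high values led to the list, so nothing is read from that count. As with vehicle, Spry1 and Etv5 averaged under 100 in WB311, so they were measured only through WB-F344, where they were higher. The log2 differences (WB311 minus WB-F344) were -3.35 for Dusp1, -1.77 for Etv5, -1.45 for Dusp6, -1.24 for Spry1, -1.20 for Dusp5, -0.54 for Etv4 and -0.32 for Spry2. Spry4, at -0.18, fell short of the fold change limit.

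**Figure D4:**
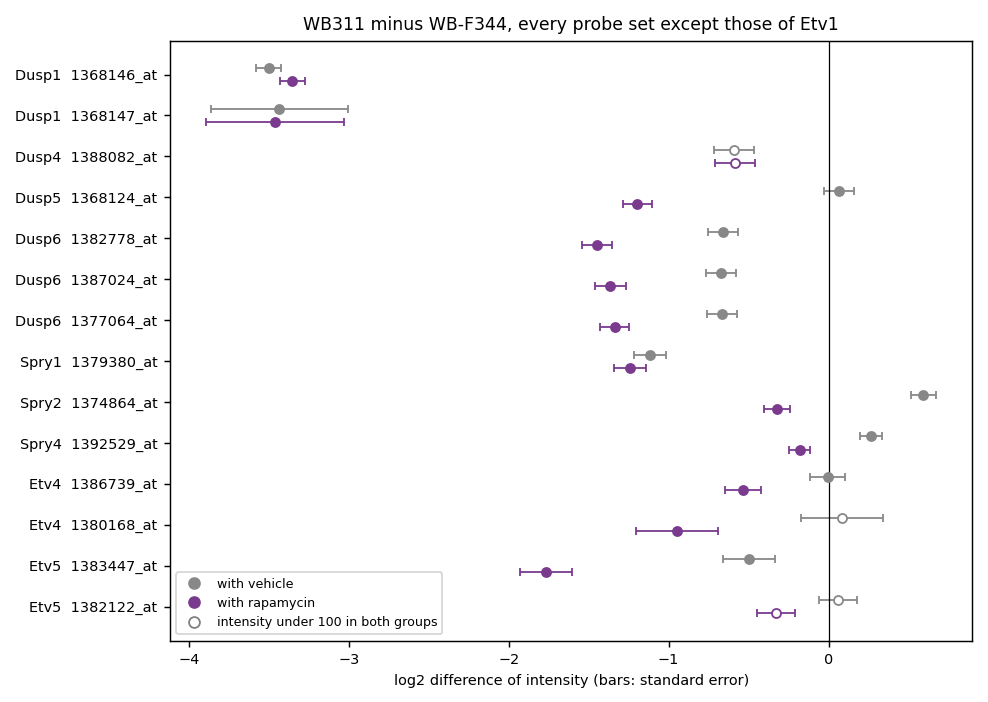
Log2 difference of intensity, WB311 minus WB-F344, for the same 14 probe sets, with vehicle (gray) and with rapamycin (purple); bars are the SE and open points mark probe sets under an average of 100 in both groups. Dusp1 lay below -3 in both conditions, Dusp5 moved from 0.07 with vehicle to -1.20 with rapamycin, and Spry2 moved from 0.59 to -0.32.

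The other genes of the pathway were taken as lists. Of 12 other transcripts known to be induced by ERK, 7 were measured in WB311. With rapamycin 4 of these were called higher and none lower, where 1.71% of all measured probe sets were called higher and 1.64% lower. The rapamycin arrays lay wholly above vehicle for 6 of the 7 and wholly below for 1, where 20.9% and 17.8% of all measured probe sets did so. The lists were also chosen with earlier results of these data known, and the study's pathway network for WB311 had named Ccnd1 and Myc. Nothing is therefore read from these counts. The cell cycle gene Ccnd1 rose by 0.55 (SE 0.11, adjusted p = 0.0162 from limma), the zinc finger gene Egr1 by 0.98 (SE 0.19, adjusted p = 0.0155), Myc by 0.50 (SE 0.071, adjusted p = 0.00314) and the receptor gene Epha2 by 0.41 (SE 0.070, adjusted p = 0.00833). The call of Ccnd1 was lost without any 1 of the 6 WB311 arrays (adjusted p between 0.0541 and 0.0746), and that of Egr1 without any of 4 of them (0.0575 to 0.0779). Without any of those 4 arrays the list's count was 2. No gene was called with rapamycin in WB311 among 3 other dual-specificity phosphatases, 9 other ETS factors, 12 genes of the cascade from adaptors to MEK, 3 kinases downstream of ERK and 3 JNK and p38 kinases measured, or for the 1 other Sprouty or Spred gene. In WB-F344, where 11.7% of all measured probe sets lay wholly above vehicle and 22.7% wholly below, the rapamycin arrays lay wholly above for 7 of 9 ERK-induced transcripts, 4 of 9 other ETS factors, 2 of 12 cascade genes and 1 of 3 other phosphatases. They lay wholly below for 2 of the 12 cascade genes, 1 of 4 kinases downstream of ERK, 1 of 2 other Sprouty and Spred genes and 1 of 2 JNK and p38 kinases. These counts are again a description.

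Between the lines with vehicle the lists moved in both directions, and their counts stand beside the 27.9% of all measured probe sets called higher and the 28.1% called lower. Of 3 other dual-specificity phosphatases, 2 were lower in WB311, Dusp14 at -1.65 (SE 0.098, adjusted p = 1.98e-08 from limma) and Dusp3, which acts on ERK and JNK, at -1.48 (SE 0.14, adjusted p = 1.75e-06). The third, Dusp7, which acts on ERK in the cytoplasm as DUSP6 does, was higher at 0.37 (SE 0.086, adjusted p = 0.0025). Of the Sprouty and Spred genes, Spred3, an inhibitor of Ras and Raf signaling, was lower at -1.42 (SE 0.22, adjusted p = 0.000102). It averaged 80.7 in WB311 and 224 in WB-F344, so it was measured only through the line where it was higher. Spry3 was higher at 0.47 (SE 0.16, adjusted p = 0.0236), a call that was lost without any of 4 arrays (adjusted p between 0.0527 and 0.102). Of 9 other ETS factors 2 were higher and 5 lower, among them Fli1 at -1.03, Ets1 at -0.84 and Gabpa at 0.86. Of 12 cascade genes 5 were higher and 3 lower, beside 56% of all measured probe sets called. The adaptor gene Gab1 was higher by 1.82 and Rasa1, which encodes a GTPase-activating protein that switches Ras off, by 1.79, while the adaptor gene Shc1 was lower, at -1.06. Of 8 other ERK-induced transcripts 1 was higher, Myc at 1.87, and 5 were lower, among them Plaur, the urokinase receptor gene, at -1.84 and Hbegf, a ligand of the EGF receptor, at -1.73. Of 3 kinases downstream of ERK 1 was higher, Rps6ka3, which encodes the kinase RSK2, at 2.04, and of 2 JNK and p38 kinases 1 was higher, Mapk14, at 0.44. The Mapk14 call was lost with the methods' t-test (adjusted p = 0.057). It was also lost without the WB-F344 vehicle plate 1 (0.36, adjusted p = 0.0508 from limma).

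**Figure D5:**
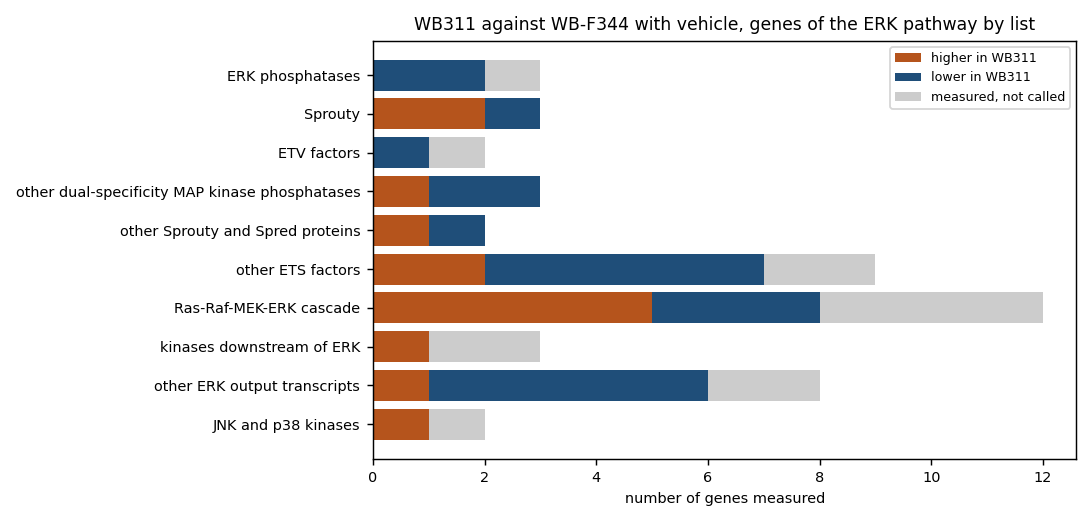
Number of genes measured (x axis, count) in each list of the ERK pathway, split into those called higher in WB311 (orange), called lower (blue) and not called (gray), WB311 against WB-F344 with vehicle. The ERK phosphatases were lower or not called (2 of 3 lower), the Sprouty genes went both ways (2 higher, 1 lower), and of the other ERK output transcripts 5 of 8 were lower, while of all measured probe sets 27.9% were higher and 28.1% lower.

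The gene with the widest spread over the 12 arrays in each family was compared with 11469 probe sets of other genes that averaged at least 100 in a group. The patterns most like Dusp1 were those of Cdk17 (Pearson r = 0.999 over 12 arrays), Ocln (0.998) and Sqor (0.997). Those most like Spry1 were Taf11l1 (0.990), Got1l1 (0.990) and Cd1d1 (0.989), and those most like Etv5 were Tjp1 (0.990), Crebrf (0.986) and Rnf144b (0.984). The 12 arrays fall into 2 lines, so a difference between the lines alone gives a high value, and these are descriptions without a test.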

How the data were processed

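The authors hybridized RNA of WB-F344 and WB311 cells, 3 plates per group, to the Affymetrix Rat Genome 230 2.0 Array. The deposited file holds intensities that the authors had normalized by Robust Multiarray Average (version not given in the sources used here). That the scale is linear was read from the values, and log2 was taken here. Of 31099 probe sets, 57 were controls. Of the other 31042, 20826 had 1 gene symbol, 436 several and 9780 none, and 20758 of the 20826 gene identifiers were found in RefSeq (GRCr8). Members and lists were chosen with earlier results of these data known. limma 3.58.1 in R 4.3.3 fitted 4 groups to all 12 arrays, with empirical Bayes variances over 31042 probe sets, and was tested on simulated data. The thresholds (average intensity of 100, adjusted p of 0.05, fold change of 1.2) are those of the study's methods, whose two-sample t-test was an alternative, as were filters, normalization, array weights, samples, probe set choice and a replicate block. All members are named, with, per list, the genes called in WB311 with rapamycin and up to 3 with the largest called differences between the lines; not every gene that the rule selects is reported here. Plates of the same number deviated together in WB-F344 (correlations of 0.56 to 0.87 over 14214 probe sets) and not in WB311 (-0.14 to -0.00026) or between the lines with vehicle (-0.27 to 0.014). With 3 arrays per group, their number limits the precision. 0 data columns were left without a sample.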

Additional observations from a re-analysis of the deposited data

Results flagged for a closer look

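The 3 rapamycin arrays of Dusp5 lay above the 3 vehicle arrays in WB-F344, with a log2 difference of 1.05, and below them in WB311, at -0.21. The WB311 value did not pass the test (adjusted p = 0.262 from limma), and 17.8% of all measured probe sets lay wholly below in that comparison. The difference of the effects was -1.26 (SE 0.13), and it was not tested, since the WB-F344 contrast was used to choose the genes.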

How the results depend on the processing

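Of 24 alternative settings, 12 of which left out 1 array each, none turned the direction of a called member. The count of members called with rapamycin in WB311 was 1 in the other settings, leave-one-out included (1 to 1), and 0 with the mean of all probe sets of a gene, where Dusp1 had 0.65 (SE 0.23, adjusted p = 0.117; range over its alternatives 0.000333 to 0.117), which takes in the noisy probe set 1368147_at. In WB311 the Dusp6 probe set 1387024_at passed with the methods' t-test (adjusted p = 0.00805), with array weights (0.0237) and in a fit to the 2 groups alone (0.026). It also passed with the replicate block within lines (0.0266) and without the WB-F344 plates numbered 2 (0.0251). The Dusp6 probe set 1377064_at passed with array weights only (adjusted p = 0.0206 from limma). The Etv4 probe set 1380168_at passed under the same 5 settings as 1387024_at (0.00731 to 0.0269). In WB311 it averaged at least 100 with rapamycin only, so it was tested through the group where it was higher. With vehicle the count between the lines was 6, and 4 to 7 over the alternatives (4 to 6 in leave-one-out): it was 4 with a filter at an average of 200, under which Spry1 and Etv5 were not tested, and also 4 with array weights, without the WB-F344 plates numbered 2, without the WB-F344 vehicle plate 2 and without the WB311 vehicle plate 2, where Spry4 (0.26 to 0.28 over its alternatives, adjusted p 0.000444 to 0.0146) fell below the fold change limit and Etv5 (-0.62 to -0.22, adjusted p 0.00935 to 0.125) missed the threshold. Etv5 also missed it with the methods' t-test (adjusted p = 0.125). With rapamycin the count between the lines was 7, and 5 to 8 over the alternatives (7 in leave-one-out). The count of members not overlapping in WB-F344 was 7, and 6 to 7. A replicate block over both lines left the member counts at 1, 6 and 7, and the numbers pair the plates in WB-F344 only, whose comparison has no test. Over all probe sets, 440 were called with rapamycin in WB311, against 1140 in a fit to the 2 groups alone, 1193 with array weights, 1019 with the block within lines, 1188 without the WB-F344 plates numbered 2, 723 without the WB-F344 vehicle plate 2, 1234 with the methods' t-test, 289 with no filter and 165 to 217 without 1 WB311 array. The cause was not tested. Genes near an intensity of 100 (Spry1, Etv4 and Etv5) are the least precisely measured of the members tested.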
